A study of Homo sapiens with 16 samples.

Results

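The response of U-937 cells to Corin alone was examined by comparing the libraries of cells given Corin with those of cells given the solvent DMSO, over all genes. These 4 libraries, 2 per group, were all that carried these treatment labels for U-937, among 16 in the series. Corin was given at 0.1 µM for 24 h, and the DMSO cells were kept for the same 24 h. The series also holds U-937 cells given all-trans retinoic acid (ATRA) or ATRA with Corin, and the line SKNO-1 under the same 4 treatments, each agent at 0.1 µM. Both lines grew in the same base medium, but that of SKNO-1 also held GM-CSF at 10 ng/mL. No label says that replicates were separate cultures, so p-values measure the spread between these libraries, which may be technical.

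U-937 is an established human line with monocyte-like features, derived from a patient with histiocytic lymphoma and labelled here as acute myeloid leukaemia. Corin joins an inhibitor of the lysine demethylase LSD1 (KDM1A) to an inhibitor of the histone deacetylases HDAC1 and HDAC2, enzymes that work together in the CoREST complex. CoREST is brought to chromatin by factors such as GFI1, GFI1B, REST and SNAI1 and removes methyl groups from histone H3 lysine 4 and acetyl groups from histone tails, which keeps target genes silent. In myeloid cells GFI1 and LSD1 are known for holding back genes of monocytes and granulocytes until cells mature.

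The 4 libraries held 28.4 to 37.6 M estimated counts, of which 1.78 to 2.43% were mitochondrial. The identity genes HOXA9 and HOXA10 were at 52.2 to 57.7 and 74.8 to 90.3 CPM (each gene's counts scaled to the library's total), and RUNX1T1, whose fusion marks SKNO-1, had 1 count over all 4. Markers of the monocytic lineage were present with DMSO: CD33 stood at 73.0 and 71.2 CPM, CD4 at 115 and 112 CPM and FCGR2A at 52.0 and 51.5 CPM. The receptor for macrophage colony-stimulating factor, CSF1R, was near 0 there, at 0.689 and 0.916 CPM. The SD of the log2 difference between replicates was 0.178 for DMSO and 0.195 for Corin over 9456 genes with a mean log2 CPM above 3.

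More genes rose than fell with Corin, and the falls were smaller. edgeR's quasi-likelihood test (p-values adjusted by Benjamini-Hochberg) was run on 17717 genes, of which 12.9% were called at an adjusted p under 0.05, 1514 higher with Corin (8.55%) and 779 lower (4.4%). Genes called higher had a median log2 fold change of 0.79 and a median DMSO level of 8.85 CPM, against 10.2 CPM over all genes tested. Genes called lower had a median of -0.46 and a DMSO level of 40.6 CPM. At 3 or more on the log2 scale 125 genes had risen and 11 had fallen. With DMSO 367 of the 1514 genes called higher and 32 of the 779 called lower were under 1 CPM, as were 4436 of the 17717 tested, and 29 of those called higher had no count at all. By mean level over the 4 libraries, 5.67% of genes under 1 CPM were called higher, 10.1% at 1 to 10 CPM, 9.78% at 10 to 100 CPM and 7.29% above. Called lower in these ranges were 0.902%, 2.74%, 6.82% and 7.1%. Among protein-coding genes tested 10.4% were called higher and 5.41% lower, among long noncoding RNAs 4.3% and 2.07%. The number of calls fell when any 1 of the 4 libraries was left out, which leaves 1 library in a group. Why it fell was not tested. In bulk RNA, a change in the share of cells of one kind and a change of RNA per cell cannot be told apart.

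**Figure D1:**
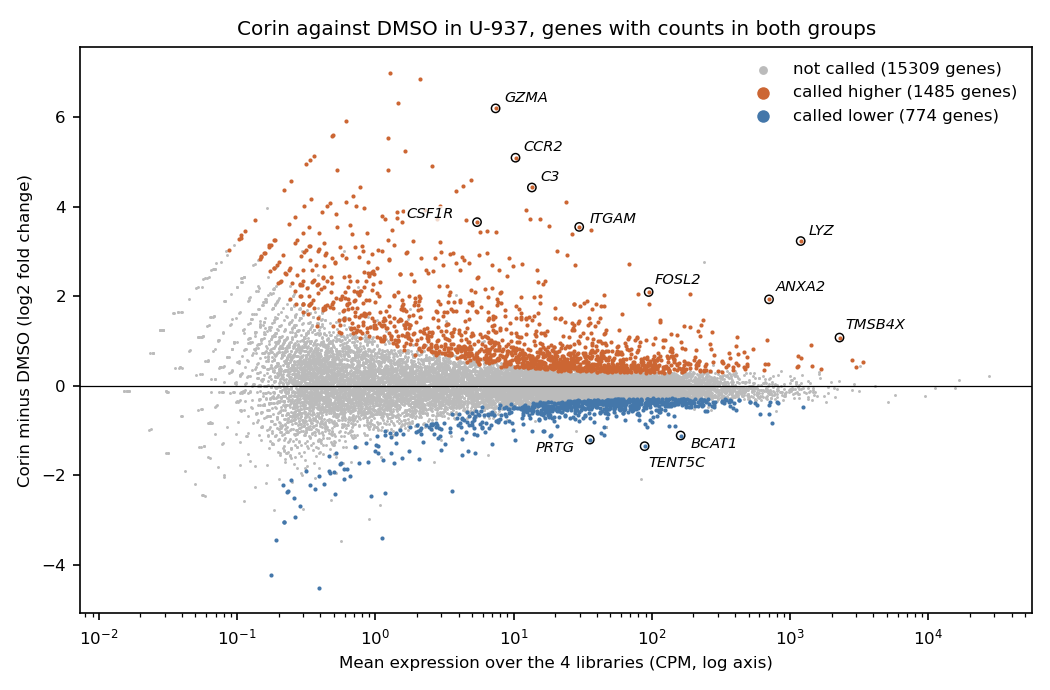
Log2 fold change (Corin minus DMSO, y axis) against the mean expression over the 4 libraries (CPM, log x axis) for each gene tested with counts in both groups; orange points are the 1485 genes called higher, blue the 774 called lower and grey the 15309 not called. The orange cloud reaches past 6 on the y axis, mostly at low levels, while LYZ, ANXA2 and TMSB4X rose from high levels; 29 genes called higher and 5 called lower had no counts in 1 group and are not drawn.

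The 12 largest rises among protein-coding genes at a mean level of 5 CPM or more are described first. GZMA (granzyme A, a protease of cytotoxic granules; ENSG00000145649.8, chromosome 5, 55102646 to 55110252 in GENCODE release 44 on GRCh38) was at 0.0626 and 0.339 CPM with DMSO and at 16.7 and 12.6 CPM with Corin, a log2 fold change of 6.19 (SE 0.37, adjusted p = 9.71e-10). CCR2 (ENSG00000121807.5, chromosome 3, 46353864 to 46360940), the chemokine receptor that leads monocytes out of the bone marrow, was at 0.720 and 0.441 CPM with DMSO and at 21.4 and 18.7 CPM with Corin (5.09, SE 0.21, adjusted p = 1.66e-14). C3 (ENSG00000125730.16, chromosome 19, 6677704 to 6730562), the central complement component, went from 1.53 and 0.848 CPM to 26.5 and 25.3 CPM (4.43, SE 0.17). In each of these the lowest Corin library was far above the highest DMSO library. ITGAM (ENSG00000169896.18, chromosome 16, 31259967 to 31332892), the CD11b chain of the integrin Mac-1 and a usual marker of myeloid maturation, was at 4.82 and 4.58 CPM with DMSO and at 57.6 and 52.3 CPM with Corin (3.55, SE 0.12, adjusted p = 1.91e-15). CSF1R (ENSG00000182578.13, chromosome 5, 150053291 to 150113372) was at 10.6 and 9.50 CPM with Corin, a log2 rise of 3.65 (SE 0.19) over the DMSO values given above. Replicates lay close together in both genes. Groups that do not overlap were a condition for naming these 12 genes, and 27% of all genes tested were higher with Corin without overlap.

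The other 7 of these 12 rises spanned log2 fold changes of 3.44 to 4.09. MS4A4A, a tetraspan protein of macrophages, was at 2.41 and 2.95 CPM with DMSO and at 52.2 and 38.9 CPM with Corin (4.09, SE 0.17). ITGAD, the CD11d integrin chain encoded beside ITGAM, rose by 3.92, and VCAN, the proteoglycan versican of classical monocytes, by 3.73. KCTD12, an auxiliary subunit of GABA-B receptors, went from 2.00 and 2.37 CPM to 27.2 and 30.4 CPM (3.72, SE 0.15). S100A9, a calcium-binding protein abundant in monocytes and neutrophils, rose by 3.56, the surface protease FAP by 3.49 and the microtubule-associated MTUS1 by 3.44. The calls of all 12 held under each of the 11 alternative settings tried.

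**Figure D2:**
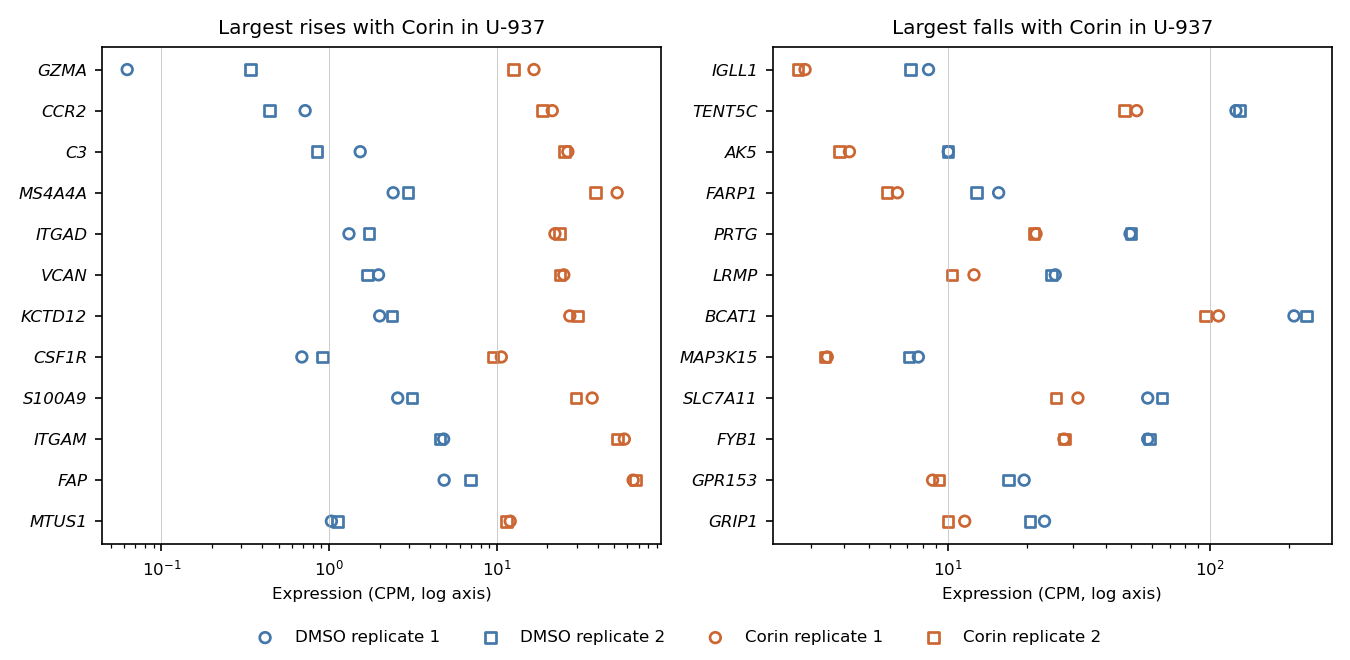
Expression in each library (CPM, log x axis) of the 12 protein-coding genes with the largest rises (left) and the 12 with the largest falls (right) among called genes of at least 5 CPM; blue marks are DMSO, orange Corin, circles replicate 1 and squares replicate 2. The risers moved by 1 order of magnitude or more, as ITGAM from 4.58 and 4.82 to 52.3 and 57.6 CPM, and the fallers by much less, as TENT5C from 125 and 130 to 52.5 and 47.2 CPM.

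The falls were shallow beside the rises. TENT5C (a poly(A) polymerase that lengthens the tails of messenger RNAs; ENSG00000183508.5, chromosome 1, 117606048 to 117628389) was at 125 and 130 CPM with DMSO and at 52.5 and 47.2 CPM with Corin (log2 fold change -1.35, SE 0.10, adjusted p = 9.80e-10). BCAT1 (ENSG00000060982.15, chromosome 12, 24810024 to 24949101), which moves amino groups off branched-chain amino acids, went from 209 and 233 CPM to 108 and 96.2 CPM (-1.12, SE 0.10). PRTG, a cell-surface protein of the immunoglobulin superfamily, went from 49.5 and 49.8 CPM to 21.7 and 21.3 CPM (-1.21, SE 0.11). Each Corin library of these genes was below each DMSO library, by close to the same factor in both. That order was a condition for naming the 12 falls, and 25.4% of all genes tested were lower with Corin without overlap. IGLL1, part of the surrogate light chain of early B cells, had the largest fall of the 12, from 8.42 and 7.19 CPM to 2.85 and 2.68 CPM (-1.50, SE 0.24). FARP1, a regulator of small GTPases, fell by 1.21 on the log2 scale, AK5, an adenylate kinase, by 1.31, and SLC7A11, the cystine and glutamate exchanger, by 1.11. LRMP, MAP3K15, FYB1, GPR153 and GRIP1 fell by 1.02 to 1.13. These 12 calls also held under all 11 alternatives.

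Among noncoding genes the largest rises were in NCF1B (3.15) and NCF1C (2.49), pseudogenes of the oxidase subunit NCF1, and in the long noncoding RNA PCAT18 (2.70). The 3 NCF1 copies are near identical, so RSEM's division of reads among them is uncertain and their separate values are estimates. The largest noncoding falls were in ABCA11P, a pseudogene (-2.40, SE 0.43), VLDLR-AS1 (-1.65) and LINC01623 (-1.51). VLDLR-AS1 lost its call without DMSO replicate 1 (adjusted p = 0.0915), and reads of this antisense gene may come from VLDLR, since the use of strand in counting is not stated. LINC01623 lost it without Corin replicate 1 (0.0877), Corin replicate 2 (0.091) and DMSO replicate 1 (0.386).

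The sequence before the start sites of genes that rose was compared with that of all genes tested and of genes that fell, as a description. Runs rich in the dinucleotide CpG, called CpG islands, mark the promoter class typical of widely expressed genes, while genes of single tissues often start in CpG-poor sequence. To show both kinds, the 250 bases before the start are given for 4 genes that rose and 1 that fell, from RefSeq on GRCh38.p14, 5′ to 3′ on the strand of the gene, with each CpG in capitals. ITGAM lies at chr16:31259725-31259974 (plus strand), CCR2 at chr3:46353861-46354110 (plus), CD163 at chr12:7503778-7504027 (minus), KCTD12 at chr13:76886406-76886655 (minus) and TENT5C at chr1:117605798-117606047 (plus).
ITGAM: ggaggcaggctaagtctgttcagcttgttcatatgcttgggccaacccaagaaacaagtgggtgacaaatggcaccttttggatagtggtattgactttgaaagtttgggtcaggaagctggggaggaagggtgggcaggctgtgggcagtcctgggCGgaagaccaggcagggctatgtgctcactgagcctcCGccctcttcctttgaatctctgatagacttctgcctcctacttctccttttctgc
CCR2: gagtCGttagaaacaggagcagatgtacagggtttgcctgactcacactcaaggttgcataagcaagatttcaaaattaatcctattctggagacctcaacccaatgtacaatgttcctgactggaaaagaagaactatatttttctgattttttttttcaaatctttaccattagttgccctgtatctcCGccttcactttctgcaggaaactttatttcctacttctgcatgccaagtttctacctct
CD163: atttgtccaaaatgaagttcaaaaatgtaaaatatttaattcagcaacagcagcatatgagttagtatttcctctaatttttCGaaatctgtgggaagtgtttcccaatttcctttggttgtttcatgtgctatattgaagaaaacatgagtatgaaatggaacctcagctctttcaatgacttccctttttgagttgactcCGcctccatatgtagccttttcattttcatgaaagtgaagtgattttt
KCTD12: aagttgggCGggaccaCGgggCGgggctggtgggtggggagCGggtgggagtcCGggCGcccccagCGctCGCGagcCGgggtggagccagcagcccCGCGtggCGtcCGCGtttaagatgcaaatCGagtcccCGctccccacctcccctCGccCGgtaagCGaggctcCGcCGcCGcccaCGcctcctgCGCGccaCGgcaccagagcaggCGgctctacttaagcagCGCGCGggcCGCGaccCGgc
TENT5C: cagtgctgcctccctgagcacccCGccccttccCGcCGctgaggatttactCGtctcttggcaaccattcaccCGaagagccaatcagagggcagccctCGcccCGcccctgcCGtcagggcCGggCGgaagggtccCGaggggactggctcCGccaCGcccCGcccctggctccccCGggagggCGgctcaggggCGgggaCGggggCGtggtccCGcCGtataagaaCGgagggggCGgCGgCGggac

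The windows of ITGAM, CCR2 and CD163 hold 2 CpG each, an observed to expected ratio of 0.115, 0.219 and 0.283. KCTD12 rose as well but has 34 CpG (ratio 0.952), and TENT5C, which fell, has 25 (ratio 0.731). Windows read from the genome for 12744 of the 12781 protein-coding genes tested were counted in the same way. A ratio under 0.6 was found in 31.3% of all these genes, in 48.4% of those called higher, in 76.5% of those with a rise of 2 or more (log2), and in 29% of those called lower. Read the other way, 16.1% of 3990 CpG-poor genes were called higher and 5.04% lower, against 7.84% and 5.61% of 8754 CpG-rich genes. CpG-poor genes are often weakly expressed, so the shares were also taken by DMSO level. At 10 CPM or more the CpG-poor share was 24.6% of all genes, 37.8% of those called higher and 25.2% of those called lower. At 1 to 10 CPM it was 37.9%, 52.1% and 51.9%, the last over 81 genes, and under 1 CPM 56.6%, 73.2% and 72.7%, the last over 11 genes. Below 10 CPM the shares of genes called higher and lower were thus close, and only at 10 CPM or more did genes called higher stand above both others. Of the 56 genes lower by 1 or more (log2), 53.6% were CpG-poor. These shares describe gene classes, and no test of them was made.

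**Figure D3:**
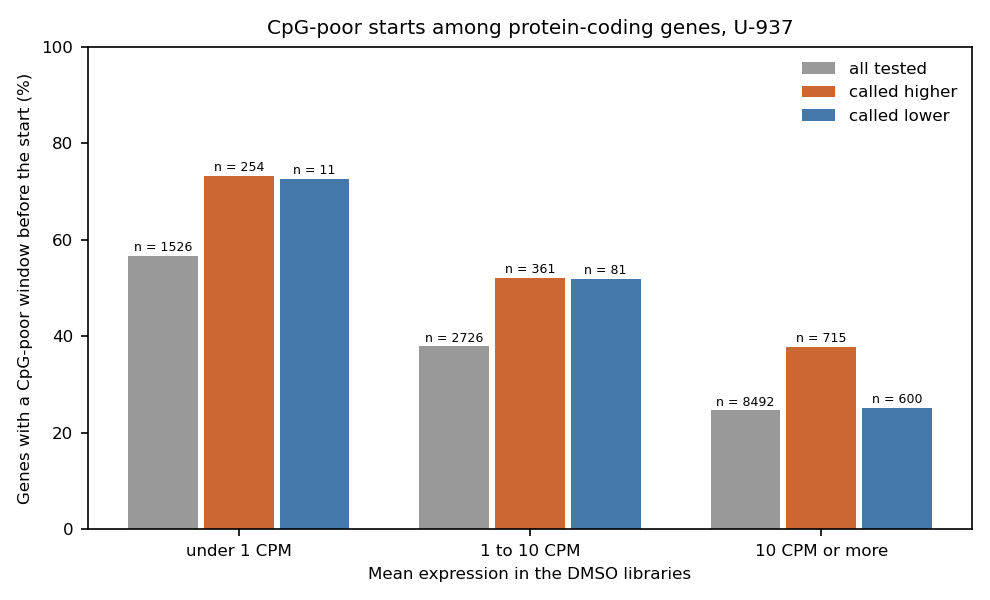
Share of protein-coding genes with a CpG-poor window (observed to expected CpG under 0.6 in the 250 bases before the start, y axis in %), by mean DMSO expression (x axis), for all genes tested (grey), genes called higher with Corin (orange) and genes called lower (blue), with the number of genes over each bar. At each level the orange bar is above the grey one, by the least at 10 CPM or more (37.8% against 24.6%).

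Short motifs were searched on both strands of the same windows. The core of PU.1 sites (AGGAAGT) was in 7.04% of all windows, 10.2% of those of genes called higher and 7.23% of those called lower. An AP-1 motif (TGANTCA, where N is any base) was in 4.3%, 7.82% and 3.18%, and the GFI1 motif (AAATCAC) in 2.01%, 3.46% and 1.45%. Of the windows printed above, that of CCR2 has a match to the AP-1 motif and that of CD163 a match to the GFI1 motif. By DMSO level the GFI1 shares of all genes and of those called higher were 2.95% and 5.51% under 1 CPM, 1.98% and 1.66% at 1 to 10 CPM, and 1.85% and 3.64% at 10 CPM or more, so the order turned in the middle range. A match says only that these letters are present.

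Gene groups were taken from 32 lists of pathways, complexes and cell types, each read against the 8.55% of all genes called higher, the 4.4% called lower and a median log2 fold change of 0. Members at or near 0 counts with DMSO, as CD163, LILRB3 and AQP9, passed the low-count filter through groups where they were higher. Such members could be called higher but hardly lower, so the list counts are partly set by the filter. Of genes that mark monocytes and macrophages 17 of 22 tested members rose and none fell, with a median of 2.12. LYZ, the lysozyme of phagocytes, was at 216 and 244 CPM with DMSO and at 2349 and 1961 CPM with Corin (log2 fold change 3.23, SE 0.13). Per transcript length, this was a mean of 186 TPM (the authors' RSEM values) with DMSO and 1684 TPM with Corin. The haemoglobin scavenger receptor CD163 (chromosome 12, 7470811 to 7503893) had 0 counts with DMSO and 3.86 and 3.36 CPM with Corin, at least 74.4-fold higher with the DMSO group set to a floor of 3 counts. The costimulatory ligand CD86 went from 0.282 and 0.407 CPM to 5.85 and 5.26 CPM (4.01, SE 0.25), and S100A8, the partner of S100A9, from 0.438 and 0.271 CPM to 8.41 and 6.14 CPM (4.34, SE 0.26). In all of these both Corin libraries were above both DMSO libraries, as in every gene called higher. The lysosomal glycoprotein CD68 rose by 1.24 and the integrin chain ITGAX by 2.00, whereas CD33 and CD4 were not called, with log2 fold changes of 0.03 and 0.08.

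**Figure D4:**
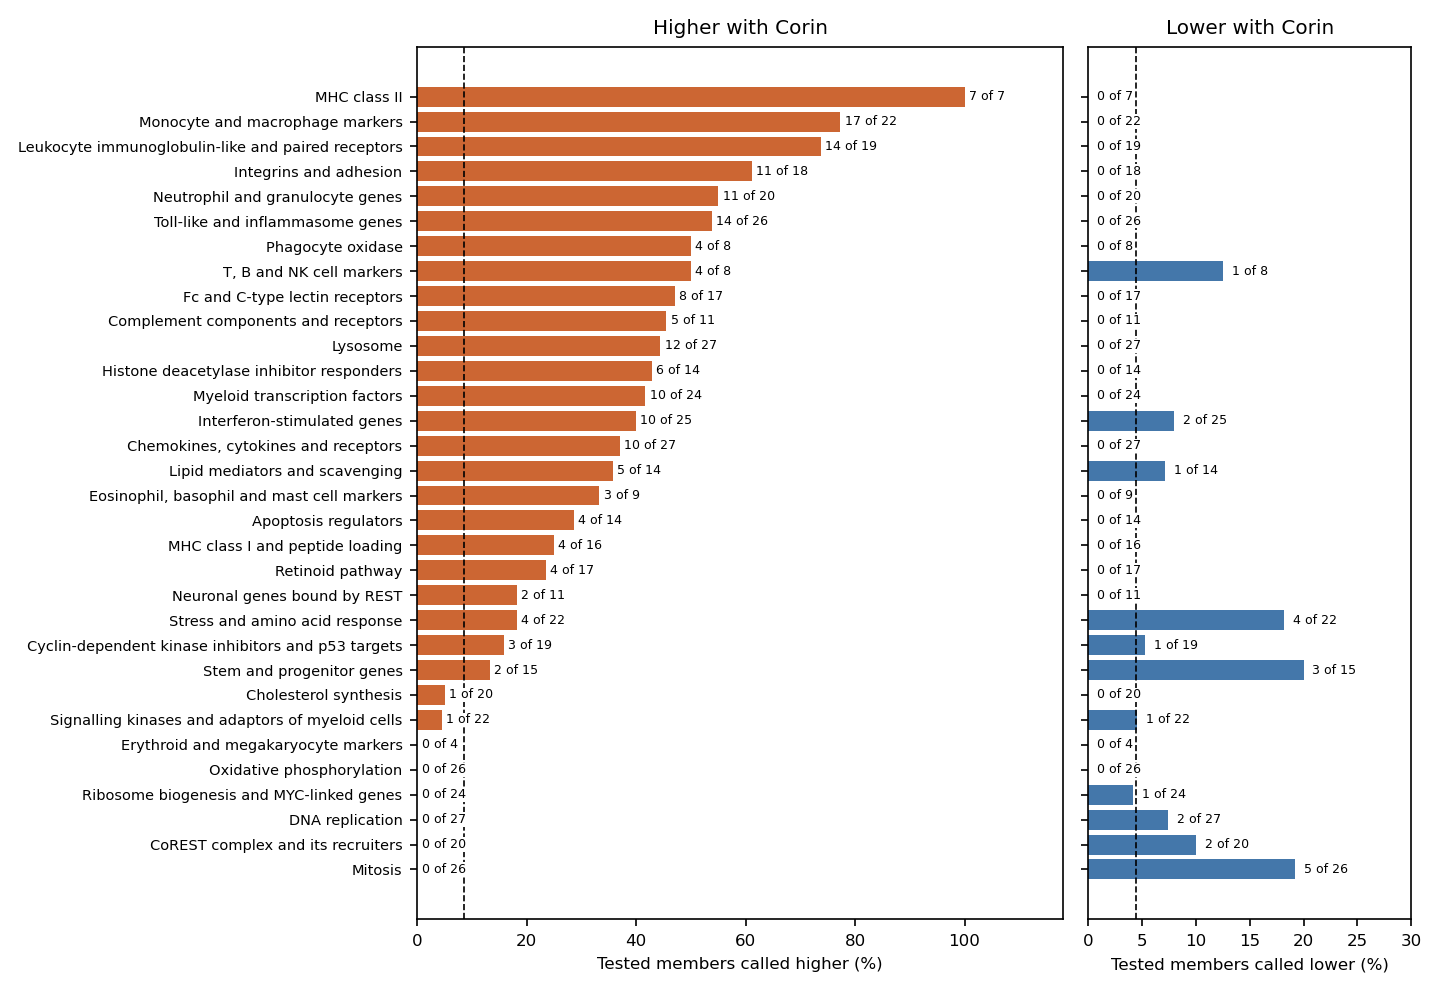
Share of the tested members of each gene list called higher with Corin (left, %) and called lower (right, %), with the counts beside each bar; dashed lines mark the shares over all genes tested, 8.55% and 4.4%. Lists of myeloid surface, MHC class II and innate sensing genes stand at the top of the left panel, and lists of growth and division at the bottom. T, B and NK cell markers stand at 50% there (4 of 8).

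Adhesion molecules and paired receptors followed. In the list of integrins and adhesion, 11 of 18 tested members rose and none fell (median 0.71), a count that was 11 without any 1 of the 4 libraries. ITGB7, the beta chain of gut-homing integrins, rose by 3.26. The partner chain of ITGAM, ITGB2, rose less, from 129 and 102 CPM to 186 and 184 CPM (0.68, SE 0.11). Among leukocyte immunoglobulin-like and paired receptors 14 of 19 rose (median 0.88). LILRA5, an activating receptor, rose by 4.46, LILRA6 by 4.91, SIRPB2 by 1.52 and TYROBP, the signalling adaptor of several of them, by 1.50. LILRB3 had 1 count over the DMSO libraries, against which the Corin libraries stood at a ratio of 158 (exact 95% interval 28.1 to 6294, for counting error only). LILR genes are near-identical paralogs and their separate values are uncertain. Of Fc and C-type lectin receptors 8 of 17 rose (median 0.40), led by the inhibitory Fc receptor FCGR2B, from 14.2 and 14.9 CPM to 56.3 and 50.6 CPM (1.88, SE 0.11), itself close in sequence to FCGR2A, and by CLEC5A, a lectin of myeloid cells, at 1.46.

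Innate sensors rose broadly: 14 of 26 tested Toll-like and inflammasome genes were higher and none lower (median 0.88). TLR8, a sensor of single-stranded RNA, was at 0.0626 and 0.102 CPM with DMSO and at 2.69 and 2.12 CPM with Corin (log2 fold change 4.83, SE 0.43). The DNA sensor AIM2 rose by 3.89, LY96, the partner of TLR4 in binding lipopolysaccharide, by 3.20, and CD180, a TLR4-like protein, by 3.01. TLR4 itself was not called (0.31, adjusted p = 0.0648), though it was called higher under 4 of the 11 alternatives, among them without DMSO replicate 2 (0.0326), and IRAK3, a brake on this signalling, was not called (-0.06). Among chemokines, cytokines and their receptors 10 of 27 rose (median 0.55, or 0.48 with genes at 0 counts set to their bounds). The monocyte attractant CCL2 went from 3.29 and 6.04 CPM to 49.8 and 46.6 CPM (3.38, SE 0.19), while its receptor CCR2 led the list. CCL3, an attractant of leukocytes, rose by 1.99 and C5AR1, the receptor of the complement peptide C5a, by 1.88.

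Of complement genes 5 of 11 rose (median 0.80), among them C3 as above and C2, from 14.8 and 13.6 CPM to 53.5 and 48.0 CPM (1.84, SE 0.11). This count was 3 without Corin replicate 1, without DMSO replicate 1 and without DMSO replicate 2. Of the phagocyte oxidase 4 of 8 rose (median 0.41), and 2 of 8 were called without Corin replicate 1 or without DMSO replicate 1. CYBB, the membrane subunit that carries electrons to oxygen, went from 17.4 and 18.3 CPM to 77.6 and 68.4 CPM (2.03, SE 0.12). Granule and migration genes of neutrophils gave 11 of 20 higher and none lower (median 1.39), and 7 higher without Corin replicate 1, with 1 lower without DMSO replicate 2. AQP9, a channel for water and glycerol, had 2 counts over the DMSO libraries, against which the Corin libraries stood at a ratio of 129 (interval 35.4 to 1072). TREM1, an amplifier of inflammation, rose by 2.44. The collagenase MMP8 rose by 3.83 (SE 0.58), from 4 counts over the DMSO libraries to a Corin mean of 0.978 CPM. The primary granule proteases CTSG (log2 fold change -0.08) and ELANE (-0.61, adjusted p = 0.0559) were not called, though ELANE was called lower under 6 of the 11 alternatives.

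RNAs of MHC class II genes rose where they could be tested. All 7 tested members of 12 listed were higher, with a median of 2.31, or 2.13 to 2.51 without any 1 library. The other 5, HLA-DPA1, HLA-DPB1, HLA-DQA1, HLA-DQB1 and HLA-DOA, were left out by the low-count filter. HLA-DRA rose by 1.80, from 1.03 and 0.780 CPM to a Corin mean of 3.17 ± 0.228 CPM (SD, n = 2), and HLA-DMB, which helps load peptides, from 0.313 and 0.475 CPM to 5.83 and 4.57 CPM (3.72, SE 0.29). HLA-DMA rose by 2.85, HLA-DRB1 by 2.31 and HLA-DRB5 by 2.94, the last 2 being similar genes whose reads RSEM divides. CIITA, the coactivator that switches on class II genes, went from 6.58 and 5.26 CPM to 16.5 and 16.6 CPM (1.48, SE 0.19), and the invariant chain CD74 rose by 1.34. Class I genes moved little, with 4 of 16 higher (median 0.16) and 1 of 16 without Corin replicate 1 or without DMSO replicate 2. HLA-B rose by 0.50 and B2M was not called.

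Of 25 tested interferon-stimulated genes 10 rose and 2 fell (median 0.53), and without DMSO replicate 2 the counts were 6 and 0. OAS1, a sensor of double-stranded RNA, which the authors' table names AC004551.1, was at 1.16 and 1.32 CPM with DMSO and at 8.73 and 7.71 CPM with Corin (2.73, SE 0.17). IFIT2 rose by 1.82 and IFI6 by 1.63. USP18, a ubiquitin-like-specific protease that dampens interferon signalling, fell by 0.66 on the log2 scale, and lost its call without Corin replicate 2 (adjusted p = 0.117), without DMSO replicate 1 (0.0573) and without DMSO replicate 2 (0.135).

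Transcription factors of myeloid cells gave 10 of 24 higher and none lower (median 0.40), but 5 without DMSO replicate 1. Among the AP-1 members FOS went from 1.50 and 2.24 CPM to 9.85 and 14.5 CPM (log2 fold change 2.70, SE 0.21), and FOSL2 from 35.9 and 36.3 CPM to 156 and 152 CPM (2.09, SE 0.10, adjusted p = 2.26e-13). KLF4, a factor of monocyte differentiation, rose by 1.27, and IRF8, which directs monocytes and dendritic cells, from 111 and 106 CPM to 166 and 145 CPM (0.52, SE 0.10). SPI1 (PU.1), a master regulator of the lineage, was at 16.1 and 11.7 CPM with DMSO and 18.7 and 16.7 CPM with Corin and was not called (0.35, adjusted p = 0.13), but was called higher without DMSO replicate 1 (0.0294). CEBPA (log2 fold change -0.17) and RUNX1 (0.06) were not called either. Stem and progenitor genes gave 2 higher and 3 lower of 15 (median -0.03). HOXA7 rose by 1.28, while MYB (0.08), MEIS1 (0.20) and MYC (-0.03) were not called. KIT, the receptor of stem cell factor, was weak, at 1.06 and 0.780 CPM with DMSO and 0.186 and 0.327 CPM with Corin. Its log2 fold change was -1.86 (SE 0.46), a call lost without Corin replicate 1 (log2 fold change -1.50) and without DMSO replicate 1 (-1.62). The list's other falls, BMI1 (-0.44) and MSI2 (-0.40), lost their calls without DMSO replicate 2 (log2 fold changes of -0.37 and -0.36), MSI2 also without Corin replicate 1 (-0.35). The list counts were 1 higher and 1 lower without Corin replicate 1 or without DMSO replicate 2, and 1 and 2 without DMSO replicate 1.

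The RNAs of the enzymes that Corin inhibits were not called. KDM1A was at 249 and 267 CPM with DMSO and at 240 and 220 CPM with Corin (log2 fold change -0.17, SE 0.10, adjusted p = 0.304). HDAC1 had a log2 fold change of 0.02 and HDAC2 of -0.23 (adjusted p = 0.158), and the scaffold RCOR1 of -0.26 (0.0765, or 0.0459 with DESeq2's test). GFI1, the repressor that recruits CoREST, stood at 232 and 227 CPM with DMSO and 252 and 246 CPM with Corin (0.12). Of 20 tested members of the complex and its recruiters, none rose and 2 fell (median 0.02). These were the zinc-finger subunits ZMYM2 (-0.37) and ZMYM3 (-0.40). ZMYM2 lost its call without Corin replicate 1 (adjusted p = 0.108) and without DMSO replicate 2 (0.0974), ZMYM3 without DMSO replicate 1 (0.0995), so that 1 member, of 21 tested there, was called in each of these fits.

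Genes that often answer histone deacetylase inhibitors gave 6 of 14 higher and none lower (median 0.39). The synaptotagmin SYT11 rose by 2.39, from 2.13 and 1.32 CPM to 9.74 and 8.52 CPM, KLF6 by 0.77 and TXNIP, a thioredoxin-binding protein, by 0.75. Neuronal genes bound by REST gave 2 of 11 higher, UNC13A (0.82) and SEZ6L2 (0.65), and none without DMSO replicate 2. The REST list counted 1 without Corin replicate 1 or without DMSO replicate 1, and 12 of its 28 genes had no count in any of the 4 libraries.

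Lysosomal genes gave 12 of 27 higher and none lower (median 0.36). GRN, the precursor of granulins, went from 46.2 and 37.2 CPM to 146 and 150 CPM (1.83, SE 0.13), the cholesterol exporter NPC1 rose by 0.94 and the protease CTSS by 0.79. Among lipid mediators 5 of 14 rose and 1 fell (median 0.31), with 3 and 0 without Corin replicate 1, and 2 and 1 without DMSO replicate 1. ALOX5AP, which feeds arachidonate into leukotriene synthesis, went from 21.7 and 22.5 CPM to 66.5 and 52.7 CPM (1.43, SE 0.12). TREM2, a lipid receptor of macrophages, was the faller, from 0.157 and 0.170 CPM to 0 counts in both Corin libraries, at least 3.70-fold lower. Cholesterol synthesis gave 1 of 20 higher and none lower (median -0.12), with 1 lower without Corin replicate 1. Of the retinoid pathway 4 of 17 rose (median 0.11), led by DHRS9, from 2.51 and 3.09 CPM to 15.8 and 14.7 CPM (2.45, SE 0.16), and DHRS3 (1.10). The receptor gene RXRA was not called (0.33), and without DMSO replicate 2 another member of the list was lower.

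In the lists of growth and division all genes called at 24 h had fallen, but the lists differed. The share called lower was 19.2% in mitosis, 7.41% in DNA replication and 4.17% in ribosome biogenesis, against 4.4% of all genes tested. Among all genes tested at a mean of 10 to 100 CPM it was 6.82%, and above 100 CPM 7.1%. The shares of DNA replication and ribosome biogenesis lie near these shares or below them and are no result about their lists. In mitosis 5 of 26 were lower and none higher (median -0.13), with BUB1B, a spindle checkpoint kinase, from 207 and 223 CPM to 156 and 153 CPM (log2 fold change -0.48, SE 0.10) and the motor protein CENPE at -0.45. That count was 7 without Corin replicate 1, 2 without Corin replicate 2 or without DMSO replicate 2, and 3 without DMSO replicate 1. In DNA replication 2 of 27 were lower (median -0.15), GINS2 (-0.37) and ORC1 (-0.41). The replication count was 1 without DMSO replicate 1, and 0 without Corin replicate 2 or without DMSO replicate 2. Ribosome biogenesis gave 1 of 24 lower, WDR12 (median of the list -0.09), 2 without Corin replicate 1 and 0 without each of the other 3 libraries. The proliferation marker MKI67 was at 905 and 921 CPM with DMSO and at 757 and 902 CPM with Corin, a log2 fold change of -0.14 that was not called. None of 26 genes of oxidative phosphorylation was called (median -0.17), while 2 were lower without Corin replicate 1 and 3 without DMSO replicate 2.

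Among inhibitors of cyclin-dependent kinases and p53 targets 3 of 19 rose and 1 fell (median 0.20), or 2 and 2 without Corin replicate 1. CDKN1A (p21), which arrests the cycle, went from 2.51 and 2.82 CPM to 8.22 and 8.29 CPM (1.64, SE 0.17), and CDKN2D rose by 0.82. FAS, a death receptor, fell by 0.81 on the log2 scale, from 11.6 and 10.7 CPM to 6.92 and 5.75 CPM. Stress and amino acid genes went both ways, 4 higher and 4 lower of 22 (median -0.15), with 2 and 3 without DMSO replicate 1. The haem-degrading enzyme HMOX1 rose by 1.23 and the chaperone HSPA5 by 0.53. ASNS, which makes asparagine, went from 27.5 and 25.9 CPM to 14.7 and 13.9 CPM (-0.90, SE 0.12), PSAT1 of serine synthesis from 173 and 177 CPM to 103 and 82.5 CPM (-0.91, SE 0.11), and SLC7A11 fell as given above. Of 14 regulators of apoptosis 4 rose (BAK1, BIK, BMF and BIRC3, by 0.34 to 0.73; median 0.03), but 1 without Corin replicate 1, 2 without Corin replicate 2 and none without DMSO replicate 2. Of 22 signalling kinases and adaptors of myeloid cells the kinase FGR rose (0.95) and BLNK fell (-0.75, with adjusted p-values of 0.0536 to 0.0617 when any 1 library was left out).

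Markers of other blood cells were measured beside these groups. The 18 eosinophil, basophil and mast cell markers summed to 208 and 214 CPM with DMSO and to 473 and 392 CPM with Corin, with PRG3, EPX, CLC and IL5RA at 0 counts in all 4 libraries. The rise lay mostly in RNASE2, the eosinophil-derived neurotoxin, which monocytic cells also make, from 126 and 134 CPM to 336 and 272 CPM (log2 fold change 1.23, SE 0.11), and in RNASE3 (0.94), its close paralog. The 18 T, B and NK cell markers summed to 116 and 105 CPM with DMSO and to 107 and 89.2 CPM with Corin. In all 4 libraries CD3D, CD3E, CD3G, CD8A, CD5, MS4A1, KLRD1, PRF1 and GZMB were at 0 counts. GZMA, the largest rise above, was not in this list. The tested members had a median log2 fold change of 0.94, and CD2 rose from 0.157 and 0.204 CPM to 0.985 and 0.555 CPM. Of 8 tested members of that list 4 rose and 1 fell, with 1 and 0 without DMSO replicate 1 and 2 and 0 without Corin replicate 1. The 20 erythroid and megakaryocyte markers summed to 334 and 412 CPM with DMSO and to 463 and 421 CPM with Corin, with HBA1, HBB, GYPB and PF4 at 0, and none of 4 tested was called. Whether cells of these kinds had a part in the results above was not tested.

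The same agent was also added to ATRA in U-937, in 4 further libraries that share none with the comparison above. Against ATRA alone, calls took in 22.5% of genes as higher and 24.8% as lower. Of the 1514 genes that rose with Corin alone 77.1% were called higher there too (29.3% of the 3993 called higher there) and 58 lower, and of the 779 that fell 68.2% were lower (12.1% of 4402) and 38 higher. All 12 of the largest rises and 10 of the 12 largest falls were called in the same direction, with LRMP and FYB1 not called. GZMA, the largest of these rises, was at a mean of 0 CPM with ATRA and 0.908 CPM with both agents. With Corin alone its mean was 14.6 CPM, so its call under ATRA gives no size of effect. The rise of ITGAM was smaller with ATRA present, 1.85 against 3.55, and a test of the difference itself gave -1.69 (adjusted p = 9.94e-09). With ATRA alone ITGAM already stood at 104 ± 6.34 CPM (SD, n = 2), and with both agents at 375 ± 9.33 CPM. The test of the difference called 23.4% of genes, 4147, among them 476 of the genes that rose with Corin alone (273 with a more positive and 203 with a less positive response under ATRA). Growth genes had their own pattern there. All 27 DNA replication genes were lower when Corin was added to ATRA (median -2.89), as were all 26 of mitosis (-1.66) and all 24 of ribosome biogenesis (-1.04), and MYC had a log2 fold change of -3.10 there against -0.03 with Corin alone.

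**Figure D5:**
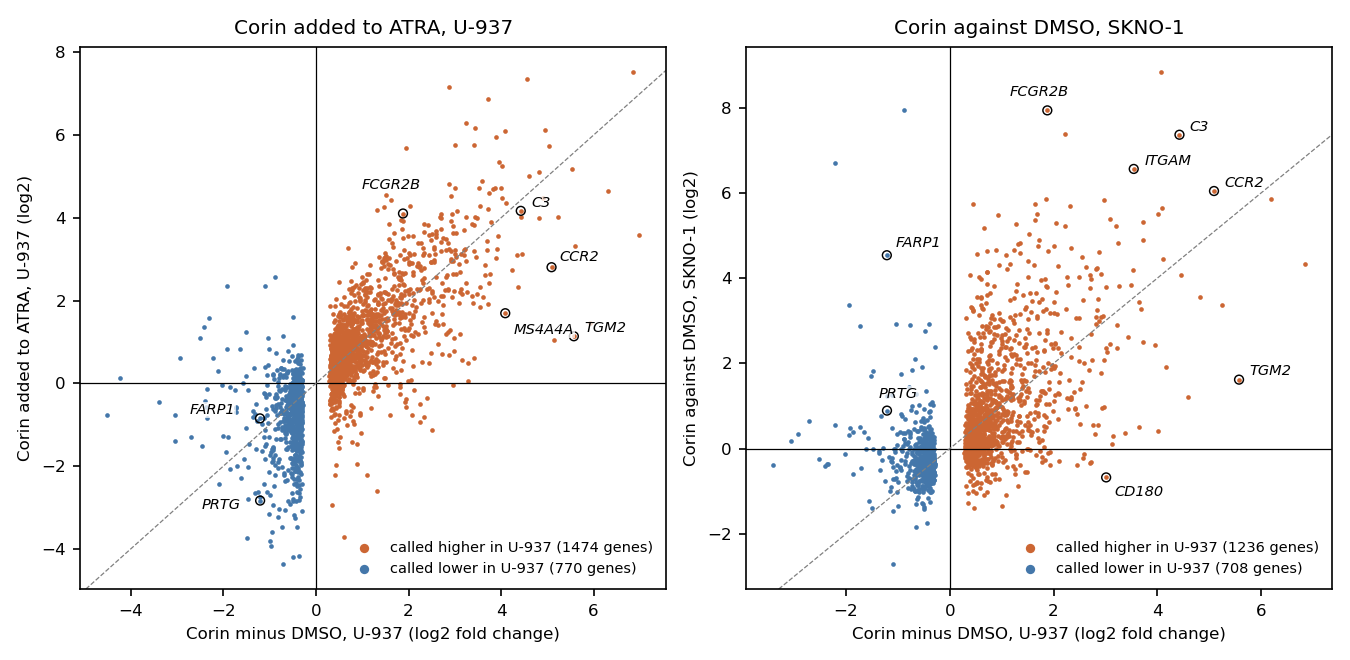
Log2 fold change of each gene called with Corin alone in U-937 (x axis), for Corin added to ATRA in U-937 (left, y axis) and for Corin against DMSO in SKNO-1 (right, y axis), orange for genes called higher in U-937 and blue for lower; only genes with counts in all groups of a panel are drawn, and the dashed line marks equal responses. Most orange points lie above 0 in both panels, while FARP1 and PRTG, lower in U-937, are above 0 in SKNO-1, and CD180, higher in U-937, is below 0 there.

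In SKNO-1, whose libraries are all separate from those of U-937, Corin against DMSO called 20.5% of 17479 genes higher and 17.3% lower. Of the U-937 genes that rose and were tested in SKNO-1, 735 of 1265 (58.1%) rose there as well, which is 25.9% of the 2834 that did so among genes tested in both lines, where 18.3% of all rose. Of those that fell, 360 of 713 (50.5%) were lower, 12.4% of 2908, where 18.8% of all were lower, and 61 were higher. All 8 of the 12 largest rises that could be tested in SKNO-1 rose, as ITGAM (log2 fold change 6.56) and MS4A4A (5.64). The others were left out by the low-count filter and stayed at or near 0 CPM with Corin: ITGAD and MTUS1 at 0, FAP at 0.0147 and S100A9 at 0.0588. CCR2, C3 and GZMA had SKNO-1 DMSO means of 0.0145, 0.0276 and 0.122 CPM and passed that filter through groups where they were higher. The count of 8 is thus partly set by the filter. Of the 12 largest falls 2 were lower (IGLL1 and LRMP) and 2 higher (FARP1 at 4.54 and PRTG at 0.89). FARP1 is a weak gene in SKNO-1, at 0.0540 ± 0.0354 CPM with DMSO and 1.36 ± 0.257 CPM with Corin (SD, n = 2). An interaction test between the lines called 12.8% of 19872 genes, 2538, and 504 of these had risen in U-937 (266 more and 238 less than in SKNO-1). CD180, which rose by 3.01 in U-937, fell by 0.67 on the log2 scale in SKNO-1 (difference 3.69, adjusted p = 3.40e-10). FCGR2B rose in both, by 1.88 and by 7.94 (difference -6.06), from DMSO means of 14.5 CPM in U-937 and 0.316 CPM in SKNO-1. The list of cholesterol synthesis had 17 of 20 genes lower in SKNO-1 and none in U-937, and that of DNA replication 21 of 27 lower in SKNO-1 and 2 in U-937, and these list counts were not tested against each other. The count of calls in SKNO-1, 6619, was 3879 without Corin replicate 1 and 3626 without Corin replicate 2 of that line. That of the interaction was 1614 and 1524 without these libraries, 4471 without DMSO replicate 2 of SKNO-1 and 1651 without DMSO replicate 1 of U-937. The lines differ in medium as well as in origin, and these cannot be told apart.

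Genes that rose were often neighbours on the chromosome. Among 12731 protein-coding genes tested with a position, 19.5% had an adjacent tested gene that rose, against 34.4% of the 1330 that rose themselves. For falling genes the shares were 10.4% and 18.2%. There were 36 runs of 3 or more adjacent genes that all rose and 5 of genes that all fell. The runs named next were chosen after their values were seen. The longest held 7 genes of the ribonuclease A cluster (chr14:20684177-20956436), from ANG to RNASE2, in which RNASE6 rose most, from 0.658 and 0.645 CPM to 8.67 and 8.23 CPM (log2 fold change 3.69, SE 0.25). RNASE6 encodes an antimicrobial ribonuclease of monocytes. Its neighbours ANG, RNASE4 and AL163636.2 overlap, so their values are uncertain, and RNASE1 lost its call without each of the 4 libraries. The SLAM family on chromosome 1 (160541095 to 160828261) held 5, with the costimulatory receptor SLAMF7 at 3.73 and CD48 at 1.50, though LY9 lost its call without each of the 4 libraries. ITGAM, ITGAX and ITGAD formed another run on chromosome 16 (31259967 to 31426505), and S100A9, S100A12 and S100A8 one on chromosome 1 (153357854 to 153391073). S100A12, at 0 counts with DMSO, was at least 15.9-fold higher with Corin. Adjacent paralogs share sequence and may share reads, and this was not tested as a source of the shares.

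The authors' deposited table of this comparison gave 1588 genes at an adjusted p under 0.05, 990 higher and 598 lower, of 14526 with an adjusted p. Of these, 967 and 544 were called in the same direction here. Across 17669 shared genes, which are not independent replicates, the log2 fold changes of the authors' deposited table and those computed here had a Pearson r of 0.997. Both come from the same libraries, so a high correlation was built in and is no independent check.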

How the data were processed

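Total RNA of each culture was treated with DNase and made into stranded libraries, with at least 50 M reads of 100 bases each, per the labels' protocols. Trimmomatic, STAR, RSEM, deepTools, DESeq2 and the build hg38 are named in the submitters' processing notes, with no version and no annotation release. The authors deposited RSEM estimated counts for 60603 genes, which need not be whole (20.1% of the values above 0 in the 4 libraries were not), together with TPM values that they computed per transcript length. The authors' deposited table of Corin against DMSO gives log2 fold changes, adjusted p-values and a mean normalized signal per gene from DESeq2.

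Here the estimated counts were rounded and tested with edgeR 4.0.16 (TMM scaling, low-count filter, robust quasi-likelihood test) in a fit of the 8 U-937 libraries, with 4 residual degrees of freedom, and Benjamini-Hochberg adjustment over all genes tested. SKNO-1 was fitted alone, and the lines were compared by an interaction term over both. CPM are on TMM-scaled totals, and a gene was called at an adjusted p under 0.05. With 2 libraries per group no permutation of a single gene could reach that threshold. Intervals of ratios are exact conditional 95% intervals and cover counting error only, and a group at 0 was set to a floor of 3 counts over the group. Gene positions come from GENCODE release 44, matched for 60261 genes.

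Promoter windows for the shares were read from the genome, because the RefSeq windows first chosen matched 78.1% of the protein-coding genes tested and 77.2% of those called higher. The windows printed are from RefSeq on GRCh38.p14. The check of replicate numbers gave a correlation across genes of -0.0956 between the DMSO and the Corin replicate differences, so the numbers were not taken to pair libraries. The fits were first run on simulated data, with the same spread for every gene and changes larger than the median change called here. Only genes with enough counts were changed, so that run is no check on small changes or on weakly expressed genes. DESeq2 1.42.0 was run as an alternative, in R 4.3.3, with figures from matplotlib 3.10.9 in Python 3.11.15.

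The members, lists and tests were chosen with earlier results of these data known. Named genes were the 12 largest rises and falls among called protein-coding genes of at least 5 CPM whose groups do not overlap, the 3 largest noncoding ones each way of at least 1 CPM, up to 4 called each way in each of 32 lists, 2 uncalled members of the highest level per list, all CoREST members, and the 3 largest each way in each interaction. LYZ, CD68, ITGAX, ITGB2, TYROBP, HLA-DRA, CIITA, CD74, IRF8, SPI1, MYC, FCGR2A, TREM2, the identity genes, the genes of chromosomal runs and those under other observations were added after their values were seen. A few genes are not reported here.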

Additional observations from a re-analysis of the deposited data

Results flagged for a closer look

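The results below stand out because the response to Corin differed between settings by a test of the difference itself, with edgeR's quasi-likelihood test and Benjamini-Hochberg adjustment over all genes. The genes were chosen for their response in U-937 to Corin alone, and that response is 1 term of each difference, so a smaller response elsewhere is partly built into the choice. Values are log2 differences, and no explanation is weighed.

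The response with ATRA present differed from that to Corin alone for 4147 genes. Among the 12 largest rises the response was smaller with ATRA for CCR2 (-2.29), MS4A4A (-2.40), KCTD12 (-1.79), ITGAM (-1.69), VCAN (-1.32), FAP (-1.32), S100A9 (-1.23), CSF1R (-1.04) and ITGAD (-0.67). The difference for GZMA was not called and has no usable size, since its mean with ATRA was 0 CPM. CCR2, the chemokine receptor, stood at 0.581 CPM with DMSO, 20.1 with Corin, 5.72 with ATRA and 40.1 with both, as means of 2 libraries. Among the largest falls the response was deeper with ATRA for GPR153 (-2.13), PRTG (-1.63), AK5 (-1.34) and BCAT1 (-1.31), and shallower for FYB1 (1.28), LRMP (0.89), SLC7A11 (0.84) and TENT5C (0.70). The largest differences among well-expressed genes were lower for TGM2 (-4.44), RHBDL3 (-3.92) and the replication factor GINS2 (-3.80), and higher for TNFSF15 (4.29), DTX4 (3.47) and LINC01226 (3.47). TNFSF15 had 2 counts over the DMSO libraries. The value of TGM2, a transglutaminase, rests on 1 count over the DMSO libraries, with means of 0.0170 CPM with DMSO, 0.958 with Corin, 79.3 with ATRA and 174 with both.

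The response in U-937 differed from that in SKNO-1 for 2538 genes. It was smaller in U-937 for ITGAM (-3.02), C3 (-2.94), VCAN (-1.58) and MS4A4A (-1.55), and larger for KCTD12 (1.22). C3 went from 0.0276 to 5.13 CPM in SKNO-1, as means of 2 libraries, so its difference rests on very few counts with DMSO. ITGAM and MS4A4A also started low there, at DMSO means of 0.375 and 0.330 CPM, against 4.70 and 2.68 CPM in U-937. Of the genes that fell, FARP1 (-5.75), PRTG (-2.10), MAP3K15 (-1.60), GRIP1 (-1.36), TENT5C (-1.30), FYB1 (-1.07), BCAT1 (-0.91) and SLC7A11 (-0.80) had lower values in U-937. TENT5C was at 280 and 269 CPM in SKNO-1 without and with Corin. The largest differences among well-expressed genes were FCGR2B (-6.06) and SEPT3 (-6.76), lower in U-937, and CD180 (3.69), TSPAN15 (3.58) and KCNN2 (7.44), higher in U-937. SEPT3 had no counts in the DMSO libraries and KCNN2 none in the Corin libraries of SKNO-1, so these 2 fitted values depend on the prior count and give no size of effect.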

How the results depend on the processing

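The number of genes called in U-937 (2293) was 1957 with DESeq2's test, 2282 with its size factors, 2366 on library totals, 2326 without the low-count filter, 2567 with only the 4 libraries compared and 2573 with a GC trend removed. It ranged from 1332 to 1887 when 1 of the 4 libraries was left out, which leaves a group with 1 library that is assumed to vary like the other groups. With the replicate number as a block it was 1971 (1354 higher, 617 lower). The numbers are not known to pair libraries. In SKNO-1 (6619) leaving out 1 library gave 3626 to 9520, the 4 libraries compared alone 3776, and the block 5927. The difference between the lines (2538) ranged from 1524 to 4471, with 2094 under the block, and that between settings in U-937 (4147) from 3098 to 4028, with 3816 under the block. Why these counts moved was not tested. No named gene that was called reversed its direction, while some that were not called changed sign, as HDAC1 (log2 fold changes of -0.10 to 0.11) and RUNX1 (-0.16 to 0.24). Of 144 genes named and called, 110 kept direction and call under all 11 alternatives and 34 lost the call in at least 1. Totals of 28.4 to 37.6 M counts limit genes under 1 CPM, where a few counts decide a fold.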

Other observations

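The genes that gained the most RNA were not those with the largest folds, and these genes were chosen after their values were seen. LYZ gained a mean of 1925 CPM, and the actin-binding peptide gene TMSB4X went from 1454 and 1481 CPM to 3410 and 2759 CPM (log2 fold change 1.07, SE 0.13). SRGN, the proteoglycan core of secretory granules, went from 936 and 1035 CPM to 1996 and 1683 CPM (0.90). ANXA2, a membrane-binding annexin, went from 277 and 310 CPM to 1203 and 1026 CPM (1.93, SE 0.12), and the peroxiredoxin PRDX1 from 426 and 475 CPM to 1001 and 832 CPM (1.02). The largest losses in CPM included GLUL, glutamine synthetase, from 954 and 927 CPM to 578 and 480 CPM (-0.83), the cell cycle kinase CDK6, from 816 and 882 CPM to 525 and 569 CPM (-0.63), and the chromatin protein HMGN2, from 726 and 742 CPM to 508 and 439 CPM (-0.63). In each of these genes both Corin libraries lay beyond both DMSO libraries, as in every gene called.

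A list of cytosolic aminoacyl-tRNA synthetases, which load amino acids onto tRNAs, was drawn up after seeing that some had fallen, so its counts only describe. Of 20 tested, 6 were lower, 1 was higher and 17 had log2 fold changes below 0, with a median of -0.24. GARS, the glycyl enzyme, went from 434 and 470 CPM to 342 and 295 CPM (-0.50, adjusted p = 0.00189 with edgeR's quasi-likelihood test). The other 5 that fell (EPRS, IARS, LARS, MARS and YARS) lost their calls without DMSO replicate 2 (adjusted p-values of 0.0994 to 0.237) and without Corin replicate 2 (0.0967 to 0.226). SARS, the seryl enzyme and the only one called higher, lost its call without Corin replicate 1, DMSO replicate 1 or DMSO replicate 2 (0.0821 to 0.293).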
